A study of Homo sapiens with 32 samples.

Results

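RNA levels of 10 Notch pathway genes were followed in RH4, a long-established cell line from a human alveolar rhabdomyosarcoma, a tumour of the muscle lineage. The genes were chosen by name and role, with earlier results of these data known. Their counts beside shares of all genes are therefore description and no test of the pathway. They comprised 3 receptors (NOTCH1, NOTCH2, NOTCH3), 3 ligands (DLL1, JAG1, JAG2) and 4 transcription factors of the HES and HEY family (HES1, HES6, HEY1, HEYL). The deposited tables hold 18980 coding genes. The study concerns dependence on the acetyltransferases CBP (gene CREBBP) and p300 (gene EP300). Its 20 RNA-seq libraries were used, and its 11 ChIP-seq samples and 1 ChRO-seq sample were not analysed here. The 16 treated libraries cover 4 compounds (A485, dCBP, IHK-44, JQAD), 2 doses (100 nM and 1000 nM) and 2 times (2 h and 6 h). Controls at each time were 1 library in the solvent DMSO and 1 of cells marked NT, an abbreviation the labels do not explain. A485 is known as a catalytic inhibitor of CBP and p300, and the other compounds are named here as in the labels. All libraries come from 1 cell line, every condition had 1 library, and nothing in the labels names separate cultures. The 4 libraries of a compound (2 doses at 2 times) therefore stand in for replicates, and p-values measure only the spread between these libraries.

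In Notch signalling, a DLL or JAG ligand on one cell binds a NOTCH receptor on its neighbour. ADAM proteases and gamma-secretase then cut the receptor, and its intracellular part joins RBPJ and a Mastermind-like protein on DNA, where CBP and p300 are recruited. The HES and HEY repressors are the best known targets, and in the muscle lineage Notch is known for holding progenitor cells back from differentiation.

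The RBPJ core motif TGGGAA links the receptors to their targets, so the 250 bases before the RefSeq start (GRCh38.p14) were searched for it on both strands. A promoter was listed for 8 of the 10 genes, all except DLL1 and HEY1. HES1 and HEYL each held 2 matches, at 84 and 70 bases before the start in HES1 and at 178 and 99 bases in HEYL (counted to the first base of the match), and the other 6 held 0. Among 21251 promoters of 15027 genes in the deposited tables, 19.9% held at least 1 match and 2.7% held 2 or more. The promoter of HEY2, a further HEY gene whose level moved the other way below, held 1 match, 213 bases before the start. Of the other pathway genes described below, NRARP, DLL4, LFNG (first listed start), TLE1 and TLE3 were also searched and held 0. The promoters of HES1, HEYL and HEY2 are shown because they carry the motif, which stands in capitals (TTCCCA is the motif on the opposite strand). HES1 lies at chr3:194135898-194136147 on the plus strand, HEYL at chr1:39639644-39639893 on the minus strand and HEY2 at chr6:125749382-125749631 on the plus strand, each written 5′ to 3′ in the direction of its gene. A match is a string of letters and not a measured binding site.
HES1: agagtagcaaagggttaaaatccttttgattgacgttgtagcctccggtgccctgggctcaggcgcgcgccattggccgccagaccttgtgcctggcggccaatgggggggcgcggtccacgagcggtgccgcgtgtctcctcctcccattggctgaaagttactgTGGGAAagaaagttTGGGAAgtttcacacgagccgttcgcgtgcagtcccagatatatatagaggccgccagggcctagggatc
HEYL: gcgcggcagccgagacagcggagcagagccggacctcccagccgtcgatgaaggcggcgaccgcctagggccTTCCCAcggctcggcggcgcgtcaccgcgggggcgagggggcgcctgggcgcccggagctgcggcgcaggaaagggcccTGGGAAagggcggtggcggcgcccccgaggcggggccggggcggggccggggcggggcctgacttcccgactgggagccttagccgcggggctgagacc
HEY2: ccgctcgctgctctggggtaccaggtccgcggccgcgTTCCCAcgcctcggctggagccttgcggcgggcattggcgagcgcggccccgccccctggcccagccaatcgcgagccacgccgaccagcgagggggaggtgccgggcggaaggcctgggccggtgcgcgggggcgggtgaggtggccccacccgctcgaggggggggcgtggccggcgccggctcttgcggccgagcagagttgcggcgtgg

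The 20 libraries held 13466631 to 16799327 expected counts over coding genes (median 15264034). All 8 markers of muscle and alveolar rhabdomyosarcoma had a median of at least 1 CPM (counts scaled to a fixed library total), while none of the 3 endothelial, 3 epithelial or 3 leukocyte markers did, and 3 of 4 fibroblast markers did. The summed muscle and rhabdomyosarcoma markers ran from 2705.3 to 2946.6 CPM in DMSO and NT and from 2822.7 to 3217.7 CPM with JQAD. They ran from 1650.0 to 2634.6 CPM with A485, 1345.5 to 2216.2 CPM with dCBP and 1272.9 to 2304.9 CPM with IHK-44, so lineage markers were lower in the same libraries as the Notch genes. The summed fibroblast markers ran from 32.2 to 39.6 CPM in DMSO and NT, 28.9 to 38.9 CPM with JQAD, 20.0 to 34.6 CPM with A485, 17.8 to 35.9 CPM with dCBP and 15.4 to 32.1 CPM with IHK-44. Coding genes held 39.3% to 44.5% of the deposited TPM (length-scaled abundance) in DMSO and NT and 37.9% to 45.5% with JQAD, but 43.0% to 53.9% with A485, 27.9% to 35.4% with dCBP and 31.2% to 34.6% with IHK-44, so the dCBP and IHK-44 libraries stood below all controls. The part of these 3 measures in the results below was not tested. In bulk RNA, fewer cells with a transcript and less of it per cell cannot be told apart.

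In control cells the Notch genes spanned a wide range. Per length, in TPM (mean ± SD of the 2 DMSO and 2 NT libraries, n = 4), NOTCH2 stood at 87.4 ± 10.7, HEYL at 80.7 ± 2.80, HES6 at 57.4 ± 8.83 and NOTCH3 at 43.3 ± 1.66. DLL1 followed at 27.7 ± 2.82 TPM, NOTCH1 at 22.6 ± 1.67, HES1 at 10.9 ± 1.26, JAG1 at 6.14 ± 0.11, HEY1 at 5.24 ± 0.43 and JAG2 at 2.49 ± 0.44. NOTCH2 and HEYL overlapped in range, and no other neighbours in this order did. NOTCH2 shares sequence with the near-identical NOTCH2NL copies, between which reads may have been split, so its values are uncertain. Over the 10 genes and both times, the log2 ratio of (CPM + 1) of NT to DMSO ran from -0.51 to 0.27. The lowest was JAG2 at 6 h, a gap as large as the fitted change of JAG2 with A485 (-0.51). NOTCH1 and NOTCH2 stood at 0.25 each at 2 h, beside a fitted NOTCH2 change of -0.31 with IHK-44 at that time. In edgeR's quasi-likelihood test, 0 of 10 genes differed between NT and DMSO (0 at an unadjusted p under 0.05, and 0 by DESeq2 and limma), against 0.0% of all 13260 genes tested.

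Every Notch gene that passed the tests against the controls was lower with the compound, and none rose. In single libraries, 54 of the 160 ratios of a treated library to its time-matched DMSO library were at least 2-fold lower, against 2.36% of ratios over all 12174 genes with a mean of at least 1 CPM. None of the 160 was at least 2-fold higher (all genes, 1.93%). The NT libraries had 0 ratios of that size. At 6 h, 8 of 10 genes were at least 2-fold lower with either dose of IHK-44 (all genes, 5.97% at 100 nM and 6.78% at 1000 nM) and 6 with either dose of dCBP (6.97% and 6.19%). A485 had 7 at 1000 nM (3.87%) and 2 at 100 nM (0.312%). The 4 JQAD libraries had 0 such genes.

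**Figure D1:**
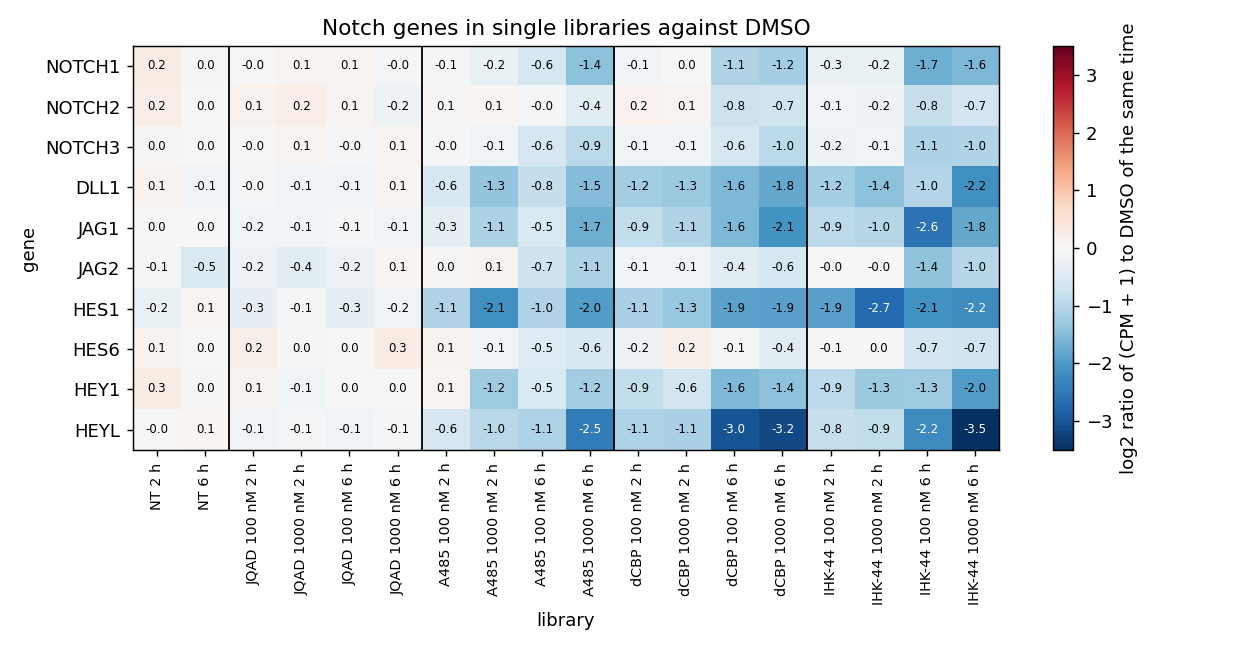
Log2 ratio of (CPM + 1) to the time-matched DMSO library (colour, and printed in each cell) for the 10 genes (vertical axis) in the 2 NT and 16 treated libraries (horizontal axis, black lines part the agents). NT and JQAD columns stay near 0, and the 6 h columns of IHK-44 and dCBP hold the lowest ratios, down to -3.5 for HEYL with IHK-44 at 1000 nM.

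Among the receptors, NOTCH1 stood at 183.2 and 225.7 CPM in DMSO and at 217.7 and 230.3 CPM in NT (2 h and 6 h). It was at 175.9 and 149.3 CPM with A485 at 100 nM, at 154.4 and 82.1 CPM at 1000 nM, at 169.5 and 107.6 CPM with dCBP at 100 nM and at 183.5 and 98.1 CPM at 1000 nM. With IHK-44 it was at 153.0 and 67.9 CPM (100 nM) and at 154.5 and 74.6 CPM (1000 nM), and with JQAD at 182.4 and 241.7 CPM and at 197.4 and 220.4 CPM. Every A485 and IHK-44 library lay below all 4 controls, whereas the 2 h dCBP library at 1000 nM and the JQAD libraries overlapped them. Over both times, the fitted log2 change against DMSO was -1.06 (SE 0.31, adjusted p = 0.0294) with IHK-44, -0.73 (SE 0.31, adjusted p = 0.0895) with dCBP and -0.66 (SE 0.31, adjusted p = 0.253) with A485.

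NOTCH3, the receptor known for its role in smooth muscle of blood vessels, ran from 350.6 to 382.6 CPM in the 4 controls. It ran from 194.7 to 342.2 CPM with A485, from 194.3 to 330.4 CPM with dCBP and from 172.8 to 326.1 CPM with IHK-44, and all 12 of these libraries lay below all controls. NOTCH2 ran from 933.8 to 1107.8 CPM in controls and from 562.2 to 878.7 CPM with IHK-44, without overlap. With dCBP it ran from 580.3 to 1039.1 CPM and with A485 from 757.9 to 981.9 CPM, and both overlapped the controls. IHK-44 lowered both receptors by the test (NOTCH3 log2 change -0.72, SE 0.22, adjusted p = 0.0361; NOTCH2 -0.56, SE 0.17, adjusted p = 0.0389).

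Of the ligands, DLL1 stood at 96.9 and 101.8 CPM in DMSO and at 106.2 and 95.1 CPM in NT. It was at 65.1 and 56.2 CPM with A485 at 100 nM and at 37.6 and 35.2 CPM at 1000 nM. With dCBP it was at 41.4 and 33.8 CPM (100 nM) and at 38.5 and 28.8 CPM (1000 nM), and with IHK-44 at 42.2 and 49.8 CPM and at 35.3 and 22.1 CPM. All 12 of these libraries lay below all controls, by a wide margin already at 2 h. No JQAD library lay within the range of the controls. That of 1000 nM at 6 h (108.1 CPM) lay above it. The others lay slightly below it, at 91.2 and 93.7 CPM at 2 h (1000 and 100 nM) and at 93.1 CPM at 6 h (100 nM). DLL1 fell with dCBP (log2 change -1.59, SE 0.26, adjusted p = 0.00171) and IHK-44 (-1.52, SE 0.26, adjusted p = 0.00192). With A485 the change was -1.10 (SE 0.26, adjusted p = 0.0765), which passed with DESeq2 and when either 100 nM A485 library was left out (adjusted p = 0.0453 and 0.0322).

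JAG1 was at 33.4 and 38.8 CPM in DMSO and at 33.9 and 39.0 CPM in NT. With A485 it was at 26.3 and 26.5 CPM at 100 nM and at 14.9 and 11.2 CPM at 1000 nM, with dCBP at 17.9 and 12.4 CPM and at 15.5 and 8.33 CPM, and with IHK-44 at 17.2 and 5.60 CPM and at 16.3 and 10.5 CPM. Again these 12 libraries all lay below the controls, with the lowest value in the 6 h IHK-44 library at 100 nM. The JQAD libraries (29.7 to 37.3 CPM) overlapped the controls over both times, but each lay below both controls of its own time. They were at 31.4 and 29.7 CPM at 2 h and at 35.65 and 37.3 CPM at 6 h (1000 and 100 nM). JAG1 fell with dCBP (log2 change -1.55, SE 0.37, adjusted p = 0.0102) and IHK-44 (-1.70, SE 0.37, adjusted p = 0.00800). JAG2, the lowest of the 10 genes per length, ran from 10.8 to 15.8 CPM in controls and overlapped them with every compound. Its fitted change was -0.73 (SE 0.31, adjusted p = 0.101) with IHK-44, -0.47 (SE 0.31, adjusted p = 0.259) with dCBP and -0.51 (SE 0.31, adjusted p = 0.367) with A485.

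HES1, a repressor and the classic Notch target, stood at 16.5 and 14.4 CPM in DMSO and at 13.9 and 15.4 CPM in NT. With A485 it was at 7.45 and 6.48 CPM (100 nM) and at 2.98 and 2.99 CPM (1000 nM), and with dCBP at 6.92 and 3.19 CPM and at 5.99 and 3.10 CPM. IHK-44 gave 3.69 and 2.56 CPM at 100 nM and 1.63 and 2.35 CPM at 1000 nM, the lowest of which rested on 22 expected counts (95% Clopper-Pearson interval 1.02 to 2.47 CPM, counting error only). All 12 libraries lay below all controls. Of the JQAD libraries, only that of 1000 nM at 2 h (15.8 CPM) lay within the range of the controls. The others lay below it, at 13.4 CPM (100 nM, 2 h) and at 12.9 and 11.4 CPM (1000 and 100 nM, 6 h). The fitted log2 change was -2.69 (SE 0.35, adjusted p = 0.00028) with IHK-44, which leaves 15.5% of the DMSO level, and -1.82 (SE 0.34, adjusted p = 0.0034) with dCBP. With A485 it was -1.70 (SE 0.34, adjusted p = 0.0477). That call was lost in 16 of the 20 fits that left out 1 library, all except those without A485 at 100 nM and without dCBP at 100 nM, with adjusted p-values from 0.0115 to 0.519 over the 20 fits and a log2 change between -1.96 and -1.47.

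**Figure D2:**
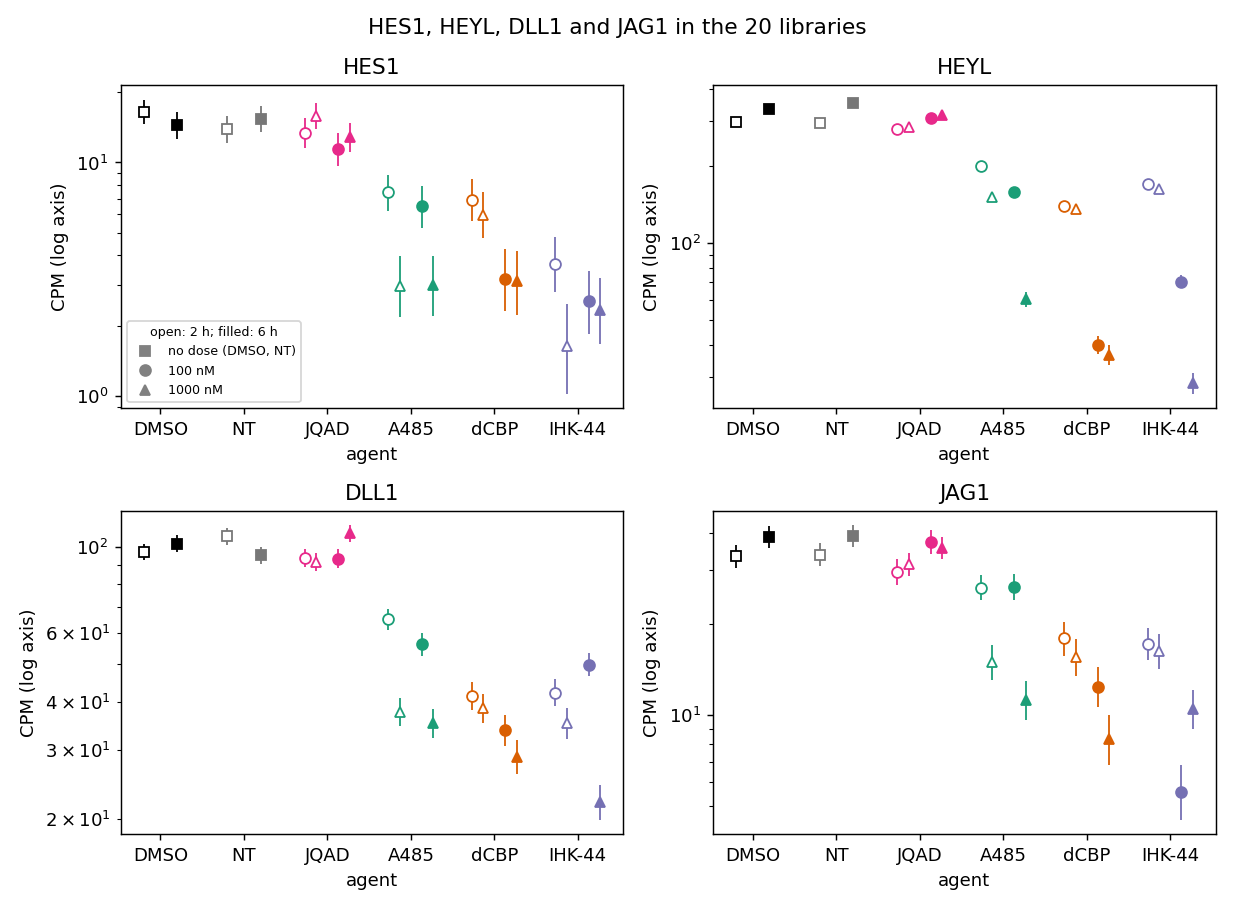
CPM (log axis) of HES1, HEYL, DLL1 and JAG1 in each of the 20 libraries by agent (horizontal axis). Open symbols are 2 h and filled symbols 6 h, circles 100 nM, triangles 1000 nM and squares the controls, and bars are 95% Clopper-Pearson intervals for counting error only. JQAD sits close to the controls, slightly below both controls of the same time for HEYL and JAG1, and the other compounds lie further below. HEYL is at 28.2 to 70.5 CPM in the 6 h IHK-44 libraries.

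HEYL, the most abundant of the 4 HES and HEY genes, was at 297.5 and 333.8 CPM in DMSO and at 295.1 and 353.3 CPM in NT. It was at 199.2 and 157.5 CPM with A485 at 100 nM and at 150.7 and 60.1 CPM at 1000 nM, at 139.8 and 39.9 CPM with dCBP at 100 nM and at 135.6 and 36.5 CPM at 1000 nM. With IHK-44 it was at 169.6 and 70.5 CPM and at 162.2 and 28.2 CPM. All 12 libraries lay below all controls, and each 6 h library below its 2 h counterpart. The JQAD libraries (278.6 to 316.3 CPM) overlapped the controls over both times, but each lay below both controls of its own time. They were at 283.8 and 278.6 CPM at 2 h and at 316.3 and 307.4 CPM at 6 h (1000 and 100 nM). HEYL fell with dCBP (log2 change -2.19, SE 0.51, adjusted p = 0.00974) and IHK-44 (-1.89, SE 0.51, adjusted p = 0.0226), and its change with A485 was -1.33 (SE 0.50, adjusted p = 0.180).

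HEY1 ran from 8.64 to 11.7 CPM in controls, from 3.19 to 5.17 CPM with dCBP and from 2.17 to 4.15 CPM with IHK-44, without overlap. A485 at 1000 nM gave 3.10 and 4.29 CPM, below the controls, while 100 nM gave 9.37 and 7.57 CPM, which overlapped them at 2 h only. HEY1 fell with dCBP (log2 change -1.41, SE 0.36, adjusted p = 0.0138) and IHK-44 (-1.69, SE 0.36, adjusted p = 0.00743). HES6, known for antagonising HES1 rather than acting as a Notch target, moved least of the 4. It ran from 61.8 to 74.2 CPM in controls and from 37.5 to 70.2 CPM with IHK-44, which overlapped, and its fitted change was -0.45 (SE 0.18, adjusted p = 0.0912).

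Counted over both times, 8 of 10 genes fell with IHK-44 (all but JAG2 and HES6), against 9.21% of all genes tested. With dCBP 5 fell (DLL1, JAG1, HES1, HEY1, HEYL; all genes, 11.8%) and with A485 1 fell (HES1; all genes, 0.158%). JQAD lowered 0 of 10 (all genes, 0.0%), with 0 at an unadjusted p under 0.05 and 0 by DESeq2 or limma, and its 95% intervals still allowed, for HEYL, a log2 change from -1.18 to 0.99. Including those that did not pass, the fitted change was negative for 10 of 10 genes with A485, dCBP and IHK-44, with medians of -0.72, -1.07 and -1.29 beside all-gene medians of 0.01, 0.05 and 0.04. The 3 comparisons share their DMSO libraries. By range alone, all 4 A485 libraries lay below all controls for 6 genes (7.45% of all genes), the dCBP libraries for 6 (11.1%), the IHK-44 libraries for 8 (11.5%) and the JQAD libraries for 0 (1.47%). The DMSO library at 6 h carried much of the test: without it, 1 gene passed with dCBP (DLL1) and 1 with IHK-44 (HES1), and adjusted p-values of the lost genes ran from 0.0692 to 0.213 and from 0.058 to 0.548. Without either 6 h IHK-44 library, 4 genes passed with IHK-44, with NOTCH1, NOTCH2, NOTCH3 and HEYL lost, and NOTCH2 was also lost without IHK-44 at 1000 nM and 2 h (adjusted p = 0.051). NOTCH2 passed with dCBP without its 100 nM library at 2 h (adjusted p = 0.0387).

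Compounds were also set against each other over the same doses and times, in 6 pairs, with p-values adjusted over all genes and pairs together. The genes separated JQAD from the rest: 9 of 10 were lower with IHK-44 than with JQAD (all but JAG2; all genes, either direction, 22.8%), 7 with dCBP (24.7%) and 2, DLL1 and HES1, with A485 (7.52%). HES1 was lower than with JQAD by a log2 difference of -2.49 for IHK-44, -1.61 for dCBP and -1.49 for A485. The calls nearest the threshold were lost in some fits that left out 1 library. For dCBP, NOTCH2, NOTCH3 or both were lost in 13 of the 20 such fits, libraries of each of the 4 compounds included (adjusted p of the lost calls between 0.0509 and 0.142). The A485 and IHK-44 libraries are not part of this pair. Where NOTCH2 was lost without one of them, its log2 difference, -0.47 in the full fit, stayed between -0.47 and -0.50. For IHK-44, calls among HES6, HEYL, NOTCH1 and NOTCH3 were lost in 3 fits, those without either 6 h IHK-44 library or without JQAD at 1000 nM and 6 h (between 0.0512 and 0.0712). Between A485, dCBP and IHK-44, 0 of 10 genes passed in any of the 3 pairs (all genes, 4.68% for A485 and dCBP, 3.96% for A485 and IHK-44, 0.777% for dCBP and IHK-44). At an unadjusted p under 0.05 there were 1, 4 and 1 of the 10 genes in those pairs, beside 2840, 2302 and 883 of all 13260 genes. These results do not show that the compounds act alike. HES1 was higher with A485 than with IHK-44 by 1.00 (95% interval 0.31 to 1.68, adjusted p = 0.0574), which passed without either 1000 nM A485 library (adjusted p = 0.0186 and 0.0365). It also passed without the 100 nM library at 2 h of dCBP (0.0459) or of IHK-44 (0.0454). HEY1 (0.92, adjusted p = 0.0701) passed without either 1000 nM A485 library too (0.0196 and 0.0465). Leaving out a 1000 nM A485 library leaves the doses unequal between these compounds. HEYL differed between dCBP and IHK-44 by -0.30 (95% interval -1.20 to 0.61).

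Some of the genes were low at 2 h already. At this time, with the DMSO and NT libraries of that time pooled as controls, DLL1, JAG1, HES1 and HEYL fell with A485 (4 of 10, against 3.1% of the 12971 genes tested) and with dCBP (4 of 10, 8.94%). IHK-44 lowered these 4 and also HEY1, NOTCH1 and NOTCH2 (7 of 10, 7.15%). JQAD lowered 0 (0.0%), with 1 at an unadjusted p under 0.05 (224 of all 12971 genes) and 0 by DESeq2. HES1 was already at 17.2% of control with IHK-44 (log2 change -2.54, SE 0.36, adjusted p = 0.000725), and DLL1 at 36.9% with IHK-44 and 38.0% with dCBP, whereas the receptors were at 74.1% (NOTCH1), 80.8% (NOTCH2) and 86.4% (NOTCH3) with IHK-44. Without the NT library, 9 of the 15 calls over the 4 compounds stood: DLL1, JAG1 and HES1 were lost with A485 and HEY1, NOTCH1 and NOTCH2 with IHK-44. DLL1, JAG1 and HES1 with A485 were also lost without the DMSO library (adjusted p from 0.0501 to 0.165), HES1 with dCBP as well (0.0988), and JAG1 with A485 without either JQAD library (0.0547 and 0.0573). HES1 and JAG1 with A485, HES1 with dCBP, and HEY1, NOTCH1 and NOTCH2 with IHK-44 were lost without the 1000 nM library of that compound, and NOTCH2 also without the 100 nM IHK-44 library (adjusted p = 0.0508). HEY1 passed with dCBP without either A485 library, and HEY1 and NOTCH1 passed with A485 without its 100 nM library.

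At 6 h, all 10 genes were lower with IHK-44 (17.5% of the 13058 genes tested) and 9 with dCBP, all but JAG2 (18.7%). A485 lowered 4, HES1, HES6, NOTCH1 and NOTCH3 (2.32%), and JQAD 0 (0.0%, with 0 at an unadjusted p under 0.05 and 0 by DESeq2). HEYL was at 9.78% of control with dCBP (log2 change -3.35, SE 0.47, adjusted p = 0.000677) and at 12.9% with IHK-44 (-2.96, SE 0.46, adjusted p = 0.00106). NOTCH1 was at 27.7% with IHK-44 and 39.7% with dCBP, and HES1 at 14.7% and 18.6%. The median over the 10 genes went from -0.66 at 2 h to -1.73 at 6 h with IHK-44 and from -0.65 to -1.59 with dCBP. All 4 calls with A485 were lost without DMSO at 6 h, NT at 6 h, A485 at 1000 nM or dCBP at 100 nM (adjusted p up to 0.302). Without A485 at 100 nM, the 6 other genes passed too, among them HEYL at a log2 change of -2.68. HES6 and NOTCH1 with A485 were lost without either JQAD library, and HES6 without either IHK-44 library, where DLL1 and HEYL passed in turn. HES6 with dCBP (adjusted p = 0.0492) was lost without DMSO, NT, dCBP at 1000 nM or either IHK-44 library, and JAG2 with IHK-44 without DMSO (adjusted p = 0.0603).

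**Figure D3:**
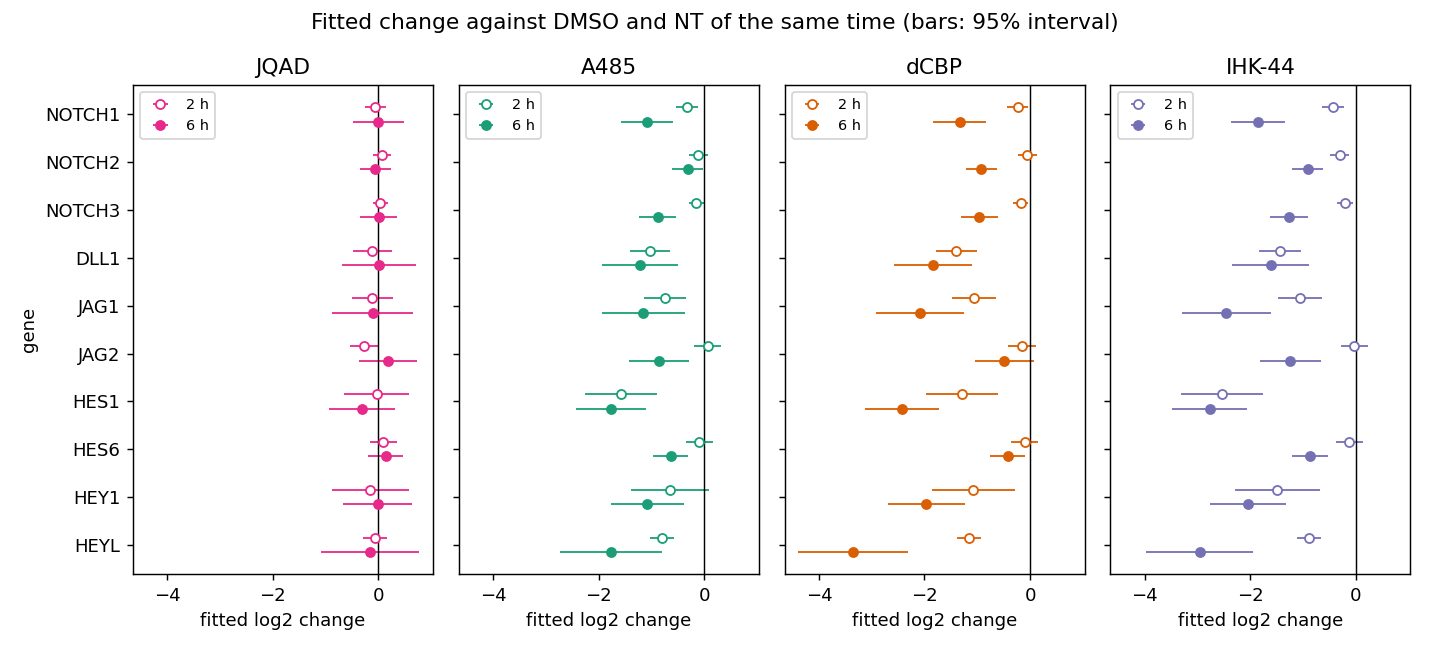
Fitted log2 change against DMSO and NT of the same time (horizontal axis, bars are 95% intervals) for the 10 genes (vertical axis) at 2 h (open) and 6 h (filled), 1 panel per compound with 2 libraries against 2 controls. With dCBP and IHK-44 the receptors and HEYL lie further below 0 at 6 h than at 2 h, while DLL1 and HES1 with IHK-44 lie close together at both times.

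Whether the response at 6 h differed from that at 2 h was tested as an interaction. With dCBP it was larger at 6 h for 4 genes (all genes lower at 6 h, 6.4%): HEYL by -2.17 (SE 0.51, adjusted p = 0.0165), NOTCH1 by -1.07 (SE 0.27, adjusted p = 0.0239), NOTCH2 by -0.84 and NOTCH3 by -0.75. With IHK-44 it was larger for 6 genes (7.76%): HEYL by -2.07 (SE 0.51, adjusted p = 0.0163), NOTCH1 by -1.42 (SE 0.27, adjusted p = 0.0045), JAG2 by -1.21, NOTCH3 by -1.06, HES6 by -0.75 and NOTCH2 by -0.61. So the 3 receptors and HEYL passed with both compounds, but several calls were lost when a single library was left out. NOTCH2 with IHK-44 was lost without any single IHK-44 library, DMSO or NT at 6 h, or either 2 h A485 library. It was also lost without the 2 h dCBP or JQAD library at 100 nM. NOTCH1 and NOTCH3 with dCBP were lost without any single control or either 2 h dCBP library. HEYL was lost with both compounds without either NT library. HES6 with IHK-44 was lost without any single control or IHK-44 library. JAG2 with IHK-44 was lost without DMSO at 6 h (log2 difference -0.89) or NT at 2 h (-1.15). It was also lost without the 100 nM IHK-44 library at 2 h (-1.18) or at 6 h (-1.02). No difference between times was detected for HES1 with IHK-44 (-0.23, 95% interval -1.43 to 0.97) or DLL1 with IHK-44 (-0.18, 95% interval -1.08 to 0.73), which were low at 2 h already, and these wide intervals do not show that they stayed level. A485 had 0 of 10 genes (0.00754%), with 4 at an unadjusted p under 0.05 (1273 of all 13260 genes) and 0 by DESeq2. When its 100 nM library at 6 h was left out, the A485 log2 differences were -1.83 for HEYL, -1.16 for JAG2, -1.27 for NOTCH1 and -0.93 for NOTCH3. The calls of the 4 compounds in all then numbered 15 in place of 10, and they lay between 3 and 11 when any other single library was left out. Without DMSO at 2 h, all 4 dCBP calls and 3 of the IHK-44 calls (HEYL, HES6, NOTCH2) were lost.

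A dose effect was detected for A485. Between 100 nM and 1000 nM, with compound and time as a block, HES1 was lower at 1000 nM by a log2 difference of -1.29 (SE 0.24, adjusted p = 0.0355), HEY1 by -1.27 (SE 0.24, adjusted p = 0.0342) and JAG1 by -1.09 (SE 0.21, adjusted p = 0.0401). That is 3 of 10 genes, against 0.853% of the 13137 genes tested. DLL1 (-0.80, adjusted p = 0.077) and NOTCH1 (-0.59, adjusted p = 0.139) did not pass with edgeR and did with DESeq2. The 3 calls were all lost without either 6 h A485 library (adjusted p from 0.202 to 1), and also without either 2 h A485 library or either 1000 nM JQAD library, while HES1 and JAG1 were lost without either 100 nM JQAD library. With IHK-44, 0 of 10 genes passed (all genes, 0.107%) and 0 by DESeq2. At an unadjusted p under 0.05 there were 4 (DLL1, HES1, HEY1, HEYL), beside 315 of all 13137 genes. DLL1 with IHK-44 differed by -0.74 (95% interval -1.15 to -0.34, adjusted p = 0.774), and passed when either 2 h IHK-44 library was left out. DLL1 and HEYL also passed for A485 without any 1 of the 4 IHK-44 libraries, and NOTCH1 without either 2 h A485 library. With dCBP and JQAD 0 passed, 0 had an unadjusted p under 0.05 and 0 passed by DESeq2. The HES1 difference with dCBP was -0.16 (95% interval -0.70 to 0.38).

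**Figure D4:**
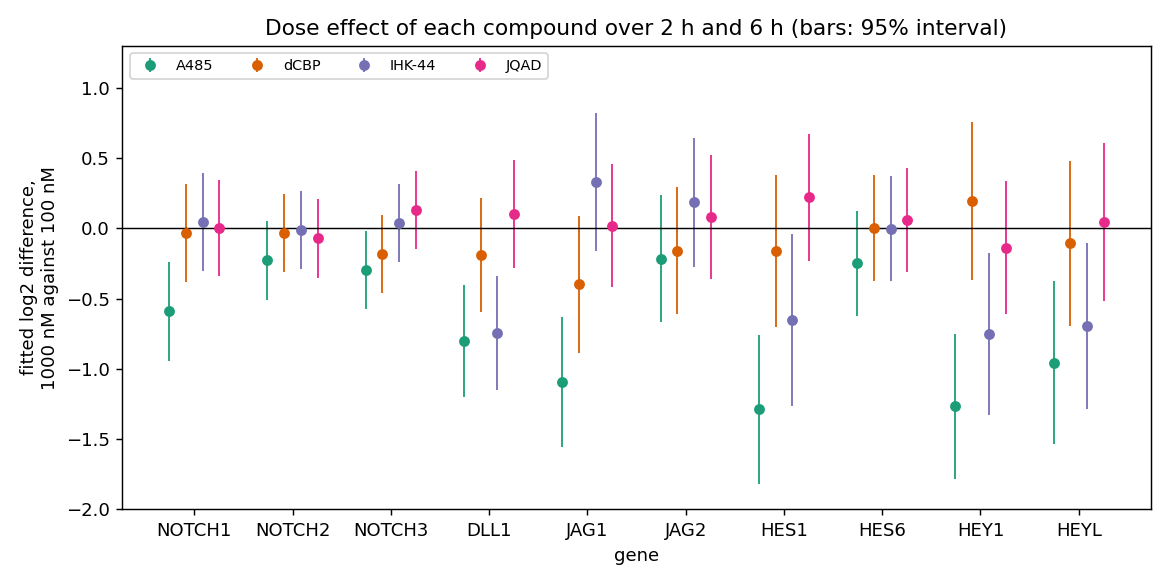
Fitted log2 difference of 1000 nM against 100 nM (vertical axis, bars are 95% intervals) for the 10 genes (horizontal axis) and the 4 compounds (colour), over 2 h and 6 h. A485 lies lowest for HES1, HEY1 and JAG1, and dCBP and JQAD intervals cross 0 for every gene.

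The wider pathway did not move as a block. Of 51 further pathway genes listed by role, 46 could be tested and 2 were at 0 in all libraries. With dCBP 9 fell and 7 rose (all genes, 11.8% lower and 11.8% higher), and with IHK-44 9 fell and 2 rose (9.21% and 7.74%). In this fit over both times A485, JQAD and NT changed 0. In the fit at 2 h, with 46 tested, 5 genes fell and 1 rose with A485 (all genes, 3.1% lower and 230 of 12971 higher). With dCBP 9 fell and 4 rose (8.94% and 1011 of 12971), and with IHK-44 8 fell and 3 rose (7.15% and 754 of 12971). In the fit at 6 h, with 45 tested, 4 fell with A485 (all genes, 2.32% lower). With dCBP 11 fell and 11 rose (18.7% and 2135 of 13058), and with IHK-44 12 fell and 8 rose (17.5% and 1871 of 13058). JQAD changed 0 in either. Over both times, the list's median log2 change was -0.04 with dCBP and -0.06 with IHK-44, beside all-gene medians of 0.05 and 0.04. Since the list was chosen with earlier results known, its counts describe these genes and are no test of the pathway.

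Among the genes that fell were the co-repressors TLE1 and TLE3, which partner HES proteins, LFNG, which adds sugars to NOTCH receptors and alters their ligand preference, and RBPJ, the DNA-binding partner of cleaved NOTCH. LFNG stood at 55.6 and 67.1 CPM in DMSO (2 h and 6 h), at 27.9 and 6.56 CPM with IHK-44 at 1000 nM and at 34.5 and 9.66 CPM with dCBP at 1000 nM. The fitted log2 change of LFNG was -2.21 (SE 0.56, adjusted p = 0.0189) with IHK-44 and -1.79 (SE 0.56, adjusted p = 0.031) with dCBP. With IHK-44 and dCBP, the log2 changes were -1.96 and -2.02 for TLE1, -1.96 and -1.85 for TLE3, -1.39 and -1.42 for TLE4 and -1.20 and -1.26 for DTX4, a ubiquitin ligase of the pathway. RBPJ, at 255 and 254 CPM in DMSO, fell by 0.62 (SE 0.17, adjusted p = 0.0247) with IHK-44 and by 0.76 (SE 0.17, adjusted p = 0.00788) with dCBP, and is named here after its values were seen.

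Against this direction, 7 of the further pathway genes rose with dCBP. Among the 8 largest changes these were DLL4, HEY2 and NRARP, 3 genes of low level, and the others are not named here. DLL4 is a Notch ligand known from blood vessels, HEY2 a repressor close to HEY1 and HEYL, and NRARP a feedback inhibitor and Notch target. DLL4 was at 0.240 and 0.397 CPM in DMSO and at 1.40 to 4.25 CPM in the 4 dCBP libraries, and rose by a log2 value of 2.78 (SE 0.67, adjusted p = 0.0111). NRARP was at 0.300 and 0.662 CPM in DMSO and at 1.47 to 3.62 CPM with dCBP (log2 change 2.40, SE 0.63, adjusted p = 0.0154). HEY2 was at 0.540 and 0.529 CPM in DMSO, at 1.70 to 2.48 CPM with dCBP (log2 change 1.78, SE 0.45, adjusted p = 0.0136) and at 1.12 to 1.84 CPM with IHK-44 (1.40, SE 0.45, adjusted p = 0.044). The dCBP libraries did not overlap DMSO for any of the 3. With IHK-44, DLL4 (2.02, SE 0.69) and NRARP (1.86, SE 0.63) had an adjusted p of 0.0519 each. All 3 rest on few reads. HEY2 thus differed in direction from HEY1 and HEYL within the same libraries, with dCBP and with IHK-44. Calls of the further pathway genes, LFNG, the TLE genes and RBPJ included, were not followed under the alternatives or without single libraries.

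**Figure D5:**
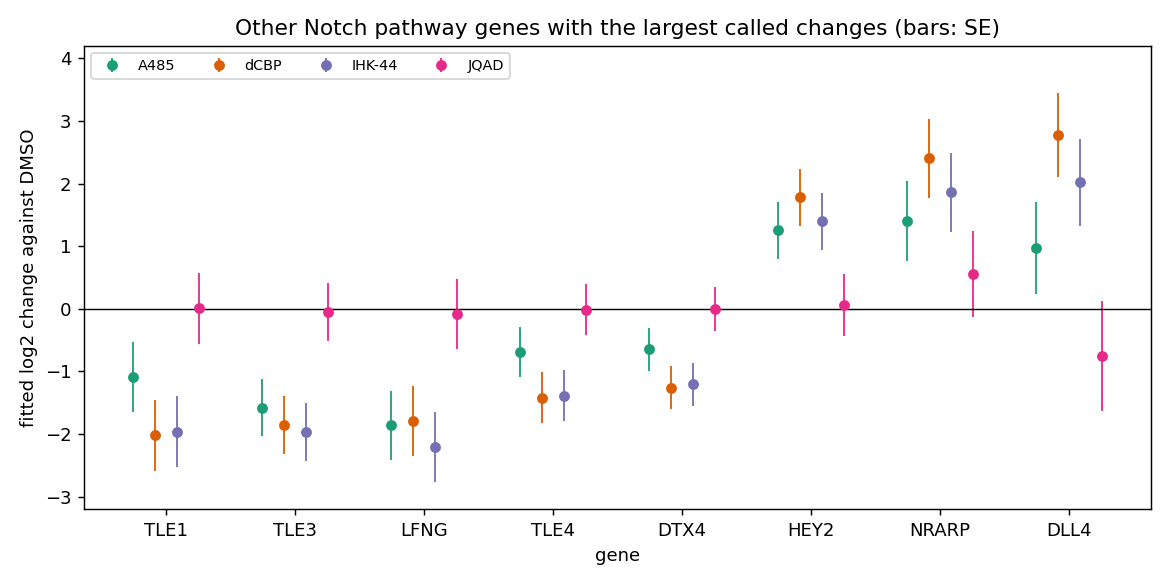
Fitted log2 change against DMSO over both times (vertical axis, bars are SE) of the 8 further pathway genes with the largest called changes (horizontal axis), for the 4 compounds (colour). TLE1, TLE3, LFNG, TLE4 and DTX4 lie below 0 and HEY2, NRARP and DLL4 above it with A485, dCBP and IHK-44, of which the A485 changes did not pass the test.

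Across the 20 libraries, Pearson's r of log2(CPM + 1) between the 10 genes ran from 0.379 to 0.97 over their 45 pairs (median 0.81). It was lowest for JAG2 with HEY1 (0.379), DLL1 (0.405) and HES1 (0.426). No such range was computed over all pairs of genes. These libraries share treatments and controls, so r describes the common response. Of 12173 other genes with a mean of at least 1 CPM, those most like NOTCH1 were LFNG (r = 0.98), KCNH2 (0.976) and NOTCH3 (0.97), over 20 libraries. For HEYL they were PLAU (0.99), CCND2 (0.989) and PITX3 (0.987), and for NOTCH3 CARD10 (0.989), HDAC5 (0.987) and NGFR (0.986). HES1 was most like BAMBI (0.965), GBX2 (0.963) and CSRNP2 (0.963), DLL1 like genes that included STX11 (0.96) and RGS16 (0.956), and HEY1 like MYCN (0.957), MID1IP1 (0.956) and STX11 (0.954). JAG1 was most like ADRA2A (0.975), DUSP4 (0.97) and HS3ST3B1 (0.968), NOTCH2 like ZFHX3 (0.974), TENM3 (0.969) and IGF1R (0.969), HES6 like SSBP4 (0.953), PBXIP1 (0.952) and LOXL1 (0.951), and JAG2 like ADGRB2 (0.926), CREB3L1 (0.905) and CLIP2 (0.899).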

How the data were processed

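RNA-seq files of RH4 cells list 18980 coding genes with 4 values each. The authors deposited expected counts (88.2% whole numbers), CPM (expected counts scaled to a fixed total over coding genes, per the file headers and the values), TPM and FPKM. The submitters' processing notes name STAR 2.5.3a and RSEM 1.3.3, and hg38 and mm10 without a role. Coding genes held 27.9% to 53.9% of the deposited TPM, a share that differed between compounds, so TPM of a gene moves with the other rows. TPM served for levels between genes, and FPKM was not used for tests.

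After rounding, the expected counts went into edgeR 4.0.16 (R 4.3.3), quasi-likelihood test, with TMM scaling and filterByExpr, with Benjamini-Hochberg adjustment over all genes and a threshold of 0.05. A level for DMSO, NT and each compound plus a time term left 13 residual degrees of freedom for 13260 genes. Separate fits took each time (5 residual degrees of freedom), dose (4) and the interaction with time (10). DESeq2 1.42.0 and limma 3.58.1 on log2(CPM + 1) were alternatives, with other scaling, no filter, DMSO and NT pooled, and each library left out. Calls under these alternatives were followed for the 10 genes only. Ratios of single libraries used log2(CPM + 1), which understates changes of low genes. Clopper-Pearson intervals of CPM cover counting error only, and reads carry no molecular identifiers. Intervals of fitted log2 changes and differences rest instead on the SE of the fit, which includes the spread between libraries. The Clopper-Pearson intervals and the ratios of single libraries came from Python 3.11.15 and scipy 1.17.1. Named pathway genes are the 8 with the largest absolute change against DMSO among those called, and those most like a gene are the 3 highest by Pearson's r, of which 1 is not reported here. The genes, lists and tests were chosen with earlier results of these data known.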

Additional observations from a re-analysis of the deposited data

Results flagged for a closer look

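The difference between compounds was tested directly, and these genes were lower than with JQAD by edgeR's quasi-likelihood test, with p-values adjusted over genes and pairs. For A485 the log2 differences were -1.07 for DLL1 and -1.49 for HES1. For dCBP they were -1.56 for DLL1, -1.61 for HES1, -1.42 for HEY1, -2.10 for HEYL, -1.45 for JAG1, -0.47 for NOTCH2 and -0.60 for NOTCH3. For IHK-44 they were -1.49 for DLL1, -2.49 for HES1, -0.61 for HES6, -1.70 for HEY1, -1.80 for HEYL, -1.60 for JAG1, -1.10 for NOTCH1, -0.62 for NOTCH2 and -0.76 for NOTCH3.

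The response at 6 h also differed from that at 2 h by the test of the interaction. With dCBP the log2 difference was -2.17 for HEYL, -1.07 for NOTCH1, -0.84 for NOTCH2 and -0.75 for NOTCH3. With IHK-44 it was -0.75 for HES6, -2.07 for HEYL, -1.21 for JAG2, -1.42 for NOTCH1, -0.61 for NOTCH2 and -1.06 for NOTCH3. Several calls of both kinds were lost when a single library was left out, as given above. The summed muscle markers were lower in the same libraries, and their part was not tested.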

How the results depend on the processing

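Each condition had 1 library, so leaving one out tests how far the counts rest on it. No call changed direction under the alternatives run. For the single genes, alternatives other than leaving out a library kept the side of the threshold in 650 cases, gained a call in 26 and lost one in 4, and leaving out a library did so in 2854, 35 and 151 (comparisons between compounds are not in these counts). The count of genes changed by A485 against DMSO (1) was 2 with DESeq2, 2 with DMSO and NT pooled and 0 to 2 without 1 library. For dCBP (5) it was 8 with DMSO and NT pooled and 1 to 6 without 1 library, and for IHK-44 (8) 1 to 8. The calls at 2 h (15 of 40) ran from 9 to 18 without 1 library. Dose calls (3 of 40) were 5 with DESeq2, 5 with no filter and 0 to 6 without 1 library, and time calls (10 of 40) ran from 3 to 15. Calls at 6 h (23) and between compounds (18) stayed within 1.5 times under every alternative. The cause of these moves was not tested. Under limma the median log2 change of all genes was 0.137 (dCBP) and 0.138 (IHK-44), beside 0.05 and 0.04 with edgeR, and the called falls of the 10 genes are larger than either. No paired analysis was possible because each condition has 1 library, so the groups share only replicate number 1, and the dose fit held compound and time as a block instead. Low counts limit HES1, HEY1, DLL4, NRARP and HEY2 most.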
